A study of Mus musculus with 18 samples.

Results

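The circRNAs of the cytoplasm of wild-type (WT) NIH/3T3 cells were compared with those of whole WT cells. The members were chosen by the sample titles alone: the 4 libraries WT_cyto_circ_rep1, WT_cyto_circ_rep2, WT_whole_cell_circ_rep1 and WT_whole_cell_circ_rep2, out of 12 circRNA libraries and 18 libraries in all. Rows were keyed by chromosome, start and end, and a circRNA without a row in a library was entered as 0 reads. In this way 15334 circRNAs were found, of 16171 in the whole series. NIH/3T3 is an immortalized mouse embryonic fibroblast line. These cells carried no edit and no treatment, whereas the other cells of the series carry a frameshift in both copies of the exportin gene Xpo4 (KO). The cytoplasm was the supernatant of a mild detergent lysis, and whole-cell RNA was taken without separation. All of this RNA was digested with RNase R before library construction.

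A circRNA forms when the splicing machinery joins the end of an exon to the start of the same exon or of an exon upstream of it, which is called backsplicing. Long introns beside such exons, often with inverted repeats, favour this reaction, and exon 2 of a gene is a common start. The product has no free ends and resists RNase R, an exonuclease that removes linear RNAs. Most exonic circRNAs are exported and are found in the cytoplasm, so that a whole-cell preparation contains the cytoplasmic molecules together with the nuclear ones. A sequencing read that crosses the backsplice junction is the evidence for a circRNA, and the count of such reads is its measured level. A count is a share of the reads of its library, so fewer molecules per cell and a smaller share of the junction reads cannot be told apart.

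The backsplice junctions of 8 circRNAs on which the following results turn are given here. Those of Nfix, Pvt1 and Cacna1c had most reads among circRNAs in both lists, Bnc2 and Rps6kc1 were lowest in the cytoplasm relative to whole cells among circRNAs listed in all 4 libraries, Rad52 stood near the top of the cytoplasm list only, and Psmd2 and Ddhd1 near the top of the whole-cell list only. Each run of 30 bases is written 5′ to 3′ on the strand of the gene, from the GRCm38.p6 genome of RefSeq, with 15 bases of the last exon in lower case and the first 15 bases of the first exon in capitals.
Nfix, exon 2, chr8:84771784-84772315, minus strand: ttgtccacactccggGATGAGTTCCACCCG
Pvt1, exon 2, chr15:62107148-62107465, plus strand: agctccctctaaaatGTCTGATTTTCTTAA
Cacna1c, exons 2 to 3, chr6:119052601-119057515, minus strand: accaactccaacctgGTTCCAACTATGGGA
Bnc2, exons 2 to 3, chr4:84546205-84555904, minus strand: agaatgtcccaacagGCACGTTTTGTGCCC
Rps6kc1, exons 3 to 6, chr1:190871592-190899571, minus strand: tagaaggtgtacaagATAATTGTGTGGAGG
Rad52, exons 10 to 11, chr6:119920110-119921028, plus strand: ttctaggtagcagagCAGTACTTCCAGCCC
Psmd2, exons 9 to 11, chr16:20656543-20657609, plus strand: tggctccatctttggGGTTTGGTGGCAGTG
Ddhd1, exons 2 to 7, chr14:45614163-45629753, minus strand: ctctacagggatgagAAGCTGATAAAATAC
The Nfix, Cacna1c, Bnc2, Rps6kc1, Rad52, Psmd2 and Ddhd1 circRNAs lie wholly in coding sequence, and that of Pvt1, a long noncoding RNA gene, in a noncoding exon. Of the 15334 circRNAs, 15285 had both ends on exon edges of a gene, and in all 15285 the genome reads AG before the first base and GT after the last base, the dinucleotides of spliced introns.

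The cytoplasm libraries held 77818 and 81941 junction reads and the whole-cell libraries 57780 and 55109. The order was the reverse for the number of circRNAs listed, with 8870 and 8909 in the cytoplasm and 9902 and 9907 in whole cells. A listed circRNA therefore had 8.99 ± 0.3 reads in the cytoplasm against 5.7 ± 0.193 in whole cells (mean ± SD, n = 2). The mean log10 reads per listed circRNA were 0.68 and 0.732 against 0.572 and 0.57, a difference of 0.135. The groups did not overlap in any of these measures, and p = 0.333 in each two-sided exact permutation test, which is the smallest p that 2 libraries against 2 allow. When every library was scaled to the same total, the difference in mean log10 reads was -0.016. The 3 mRNA-seq libraries of WT cells held fibroblast RNAs at high levels, such as Col1a1 at 510.4 ± 18 FPKM and Vim at 548.5 ± 8.02 FPKM (SD, n = 3; reads scaled by gene length and library size), while blood cell RNAs were at or near 0 (Ptprc 0.281 ± 0.0191 FPKM). Markers of the fractions are linear RNAs, which the circRNA lists do not hold.

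Replicates were compared first. The Spearman correlation of reads across the 15334 circRNAs was 0.929 between the cytoplasm libraries and 0.874 between the whole-cell libraries, as a description over circRNAs that share a library and its depth. Among circRNAs with 5 to 19 reads, replicates lay closer to each other than counting alone would place them. The chi-square per circRNA, which is about 1 for counting noise, was 0.581 in the cytoplasm and 0.687 in whole cells. Among circRNAs with 50 or more reads it was 9 and 2.62. The libraries of a pair thus differed beyond counting noise there, and they were counted as 2 libraries. That excess lay among circRNAs in both lists, at 8.93 and 2.37. Cytoplasm-only circRNAs stayed below 1, at 0.433 for 5 to 19 reads, 0.728 for 20 to 49 and 0.555 for 50 or more. Whole-cell-only circRNAs were at 0.634 for 5 to 19 and 0.404 for 20 to 49 reads. The cause was not tested. The Cacna1c circRNA had 528 reads in both cytoplasm libraries, and the Cped1 circRNA 529 and 410. The labels do not say that replicates came from separate cultures, so each adjusted p given here measures the spread between these libraries, which may be technical.

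The cytoplasm list held 9478 circRNAs and the whole-cell list 10534. Of these, 4678 were in both, which is 49.4% of the cytoplasm list and 44.4% of the whole-cell list. Another 4800 were listed in the cytoplasm only and 5856 in whole cells only. CircRNAs in both lists carried most of the reads, 72.1% and 69.5% in the cytoplasm libraries and 67.4% and 64.9% in the whole-cell libraries. The most read circRNA had 3710 reads over the 4 libraries among those in both lists, 220 among those of the cytoplasm only and 43 among those of whole cells only. All 4 libraries listed 3961 circRNAs, and both replicates of a group shared 8301 in the cytoplasm and 9275 in whole cells.

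Well-read circRNAs were listed in the other group more often, with no rise among circRNAs of few reads. Of circRNAs with 1 read in the cytoplasm, 36.6% were in the whole-cell list (245 of 670, 95% Wilson interval 33% to 40.3%). The share was 34% at 2 reads and 36.7% at 5 to 8, and then 45.5% at 9 to 16 reads, 64% at 17 to 32, 85.7% at 33 to 64 and 98.8% above 64 reads (254 of 257, 96.6% to 99.6%). From whole cells to the cytoplasm it was 28.7% at 1 read, 24.4% at 3 to 4, 37.6% at 5 to 8, 50.2% at 9 to 16, 89.2% at 17 to 32 and 100% above 64 reads (135 of 135). Replicates of a group listed the same circRNAs far more often at equal reads. Of circRNAs with 5 to 8 reads in cytoplasm replicate 1, 99.96% were also in replicate 2 (2294 of 2295), whereas 49.8% were in either whole-cell library. In whole cells the shares were 100% (2868 of 2868) and 52.4%. These intervals cover counting error only, since reads without molecular identifiers are not independent molecules. Replicates at such reads also lay closer than counting alone would place them, so their shares are not a baseline of independent libraries.

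**Figure D1:**
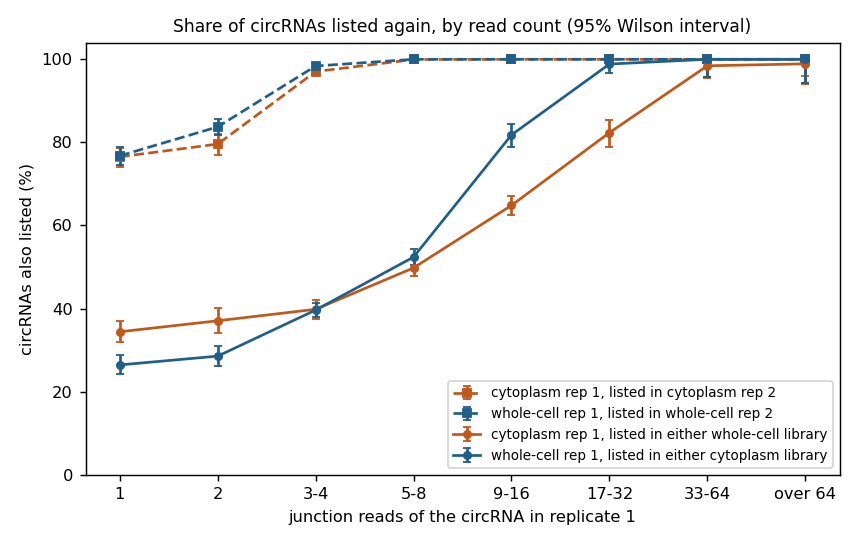
Share of circRNAs of replicate 1 that were also listed in replicate 2 of the same group (dashed) or in either library of the other group (solid), by their junction reads in replicate 1, with 95% Wilson intervals. At 5 to 8 reads the dashed lines are at 99.96% and 100%, and the solid lines at 49.8% and 52.4%.

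CircRNAs listed in a single group of the WT cells appeared in the same preparation of the KO cells. Of the 4800 of the cytoplasm only, 97% were listed in KO cytoplasm and 1.15% in KO whole cells. Of the 5856 of whole cells only, 97.5% were listed in KO whole cells and 1.18% in KO cytoplasm. CircRNAs in both WT lists were in KO cytoplasm in 98.2% and in KO whole cells in 98.7% of cases. What in the preparation or calling of the lists moved with this was not tested. The nuclear lists are far shallower, and 8.74% of the circRNAs in both lists, 0.979% of the cytoplasm-only and 1.2% of the whole-cell-only circRNAs were listed in the WT nucleus. Reads did not follow the preparation in this way. On the 4678 circRNAs in both WT lists, WT cytoplasm replicate 1 had Spearman correlations of 0.067 and 0.188 with KO cytoplasm. With KO whole cells they were 0.427 and 0.351. For WT cytoplasm replicate 2 the values were 0.047 and 0.163, against 0.405 and 0.333. The WT whole-cell libraries correlated at 0.272 to 0.378 with KO cytoplasm and at 0.252 to 0.397 with KO whole cells. The cause was not tested.

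Among the cytoplasm-only circRNAs, that of Rad52, a gene of recombinational repair, had 62 and 77 reads in the cytoplasm and 0 and 0 in whole cells. Against 3 reads over both whole-cell libraries it was at least 32.4-fold higher in the cytoplasm, after scaling by library size. The same circRNA had 59 and 56 reads in KO cytoplasm and 0 and 0 in KO whole cells, and 0 and 0 in the WT nucleus. That of Mbtd1, a reader of histone methylation, had 54 and 53 reads against 0 and 0. Fewer reads came from those of Hk1 (hexokinase 1) with 33 and 29 reads, Npepps (an aminopeptidase) with 28 and 27, Rnf149 (a RING finger protein) with 25 and 28, Ccar1 (a regulator of cell cycle and apoptosis) with 27 and 25 and Pappa (a protease that cleaves insulin-like growth factor binding proteins) with 25 and 26. Their lower bounds ran from 11.9-fold for Pappa to 14.4-fold for Hk1.

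The whole-cell-only circRNAs had fewer reads. The most read was a circle at chr1:173912814-173977437 whose ends were not both on exon edges of a gene, with 21 and 22 reads in whole cells and 0 and 0 in the cytoplasm. In contrast to the others, it was listed in KO cytoplasm, with 7 and 24 reads. The circRNA of Psmd2, a subunit of the proteasome, had 17 and 19 whole-cell reads and 0 and 0 in the cytoplasm, which is at least 17.2-fold lower in the cytoplasm against 3 reads over both libraries. That of Ddhd1, a phospholipase, had 14 and 16 reads against 0 and 0, at least 14.3-fold lower. Those of Csnk1e (a casein kinase), Snx13 (a sorting nexin), Zfp644 (a zinc finger protein), Tanc2 (a scaffold protein) and Smc4 (a subunit of condensin) had 26 to 30 reads over both whole-cell libraries and 0 in the cytoplasm. Their bounds ran from 12.4-fold for Smc4 to 14.3-fold for Csnk1e. None of the 7 with a host gene was listed in KO cytoplasm. As each of these circRNAs was named for its reads in the group where it was listed, no test is read from them.

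CircRNAs in both lists differed from the others in their introns. The median intron upstream of the first exon was 10009 bases for circRNAs in both lists, against 4923 for cytoplasm-only and 5043 for whole-cell-only circRNAs. The medians of the downstream intron were 7561, 3598.5 and 3651 bases. The difference was seen at equal reads. Among circRNAs with 9 to 16 cytoplasm reads, the upstream median was 9190 bases for those also in the whole-cell list and 4929 for the rest, and among those with 9 to 16 whole-cell reads it was 10077 and 5422. Exon 2 was the first exon in 35.4% of the circRNAs in both lists, in 24.8% of the cytoplasm-only and in 26.4% of the whole-cell-only circRNAs. Single-exon circRNAs made up 5.59%, 2.69% and 3.44%. The median spliced length was 477 bases in both lists, 516 in the cytoplasm only and 566 in whole cells only. Coding sequence alone was covered by 80.4%, 85.6% and 85.2%. These medians and shares over circRNAs are descriptions, with no test.

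**Figure D2:**
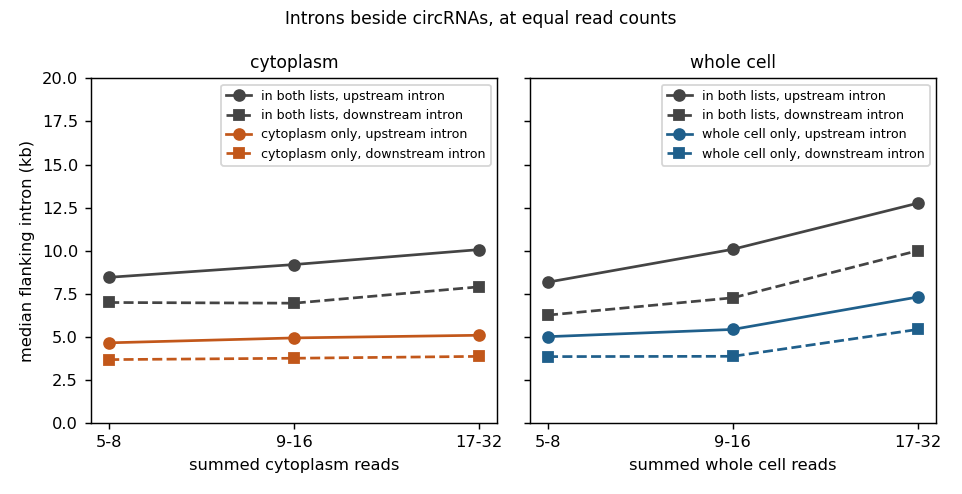
Median length of the introns upstream (circles, solid) and downstream (squares, dashed) of circRNAs, in kb, for circRNAs in both lists and in a single list, by summed cytoplasm reads (left) and summed whole-cell reads (right). In every bin drawn the introns beside circRNAs of both lists are the longer, as at 9 to 16 cytoplasm reads with 9190 against 4929 bases upstream.

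Weighted by reads, the fractions differed little in length. The read-weighted median spliced length was 491 and 493 bases in the cytoplasm and 495 and 495 in whole cells. The read-weighted median genomic span was 7378 and 7636 bases against 8208 and 8315. Reads of single-exon circRNAs made up 9.82% and 9.15% in the cytoplasm and 6.76% and 6.68% in whole cells, and the 10 most read circRNAs took 7.35% and 6.59% against 4.2% and 3.66%. The groups did not overlap in any of these, and p was again 0.333 in the exact permutation test. The Nfix and Pvt1 circRNAs, each of 1 exon, are among these reads. They had 1837 and 834 of the 77818 junction reads in cytoplasm replicate 1, and 1871 and 838 of the 81941 in replicate 2. In a whole-cell library each had at most 2 reads. The shares were not computed without them. The higher single-exon and top 10 shares are therefore not read as traits of the cytoplasm at large.

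The reads of the 2 groups agreed in part. Over all 15334 circRNAs, with absent ones as 0, the Spearman correlation between summed cytoplasm and summed whole-cell reads was -0.0477. Over the 4678 circRNAs in both lists it was 0.446, and between single libraries of different groups it lay between 0.367 and 0.416. On the same 4678 circRNAs replicates correlated at 0.848 in the cytoplasm and 0.722 in whole cells. Points share a library and its depth, so these values are descriptions. Without the circRNAs of Nfix and Pvt1 the summed value was 0.449.

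Levels were then tested by quasi-likelihood in edgeR, and p-values were adjusted by Benjamini-Hochberg over all 7760 circRNAs that had at least 10 reads over the 4 libraries. Of these, 60.0% passed an adjusted p of 0.05, 34.1% higher and 25.9% lower in the cytoplasm. A circRNA of a single list passed the filter through the group where it was listed and had to differ, so only circRNAs in both lists are described further. Of the 4678, 4223 were tested and 1121 called (26.5%), 518 higher in the cytoplasm (12.3%) and 603 lower (14.3%). Their median log2 fold change over all 4223 was 0.02, and 2464 (58.3%) lay within 2-fold. Among the 3812 that were listed in all 4 libraries, 793 were called (20.8%), 9.81% higher and 11.0% lower. The calls were concentrated where a group had few reads. With 1 to 3 reads in the group of fewer reads, 681 of 908 were called, with 4 to 9 reads 287 of 1333, and with 10 or more reads in each group 153 of 1982 (75 higher and 78 lower). A circRNA of 1 to 3 reads in a group reached the 10 reads of the filter through the other group. The share called among such circRNAs is therefore not read as a result, and the 26.5% includes these calls.

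These counts depend on the setting. DESeq2 called 191 of the 4223, of which 190 were also called by edgeR, all in the same direction. Without either the first or the second cytoplasm library edgeR called 0 (848 and 763 at an unadjusted p under 0.05), without either whole-cell library 529 and 525, and with only circRNAs of both lists in the fit 591. Without scaling, which moved the median log2 fold change to 0.53, 508 were called higher and 86 lower, and with scaling by total reads, median -0.17, 472 higher and 848 lower.

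**Figure D3:**
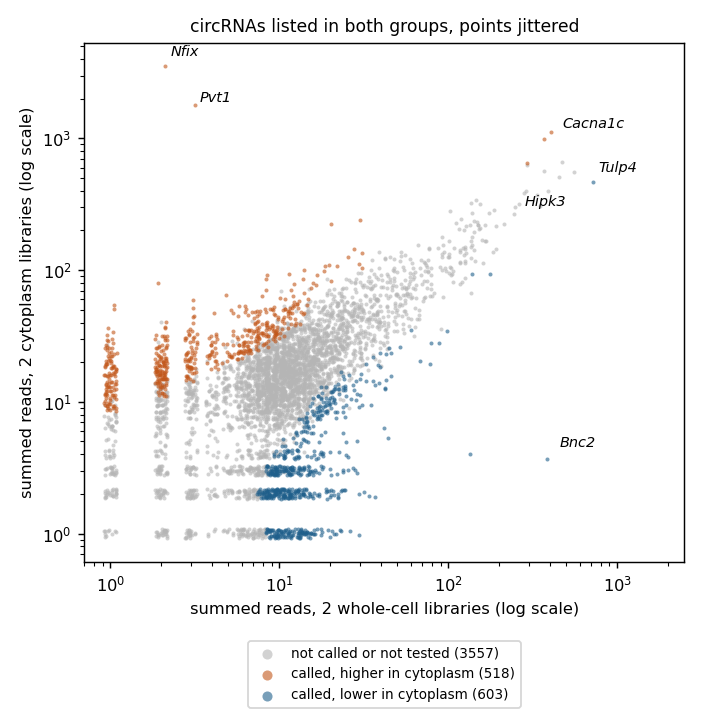
Summed reads of the 4678 circRNAs in both lists in the cytoplasm libraries (vertical) against the whole-cell libraries (horizontal), both on log scales with points jittered, coloured by the edgeR call. The called circRNAs, 518 higher and 603 lower in the cytoplasm, lie mostly along the edges with few reads, and Nfix, Pvt1 and Bnc2 stand far from the rest.

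The largest differences were those of a few abundant circles. Nfix encodes a transcription factor of the nuclear factor I family, and its exon 2 circRNA of 532 bases had 1837 and 1871 reads in the cytoplasm but 2 and 0 in whole cells. The log2 fold change was 10.20 ± 0.64 (SE, edgeR adjusted p = 0.00496), and the ratio of scaled reads was 1295 with a 95% counting interval of 358 to 10694. In KO cells the same circRNA had 682 and 685 reads in the cytoplasm and 681 and 677 in whole cells. The exon 2 circRNA of Pvt1, of 318 bases, had 834 and 838 reads in the cytoplasm and 1 and 2 in whole cells. Its log2 fold change was 8.52 ± 0.44 (SE, edgeR adjusted p = 0.00454), and the ratio was 389 (133 to 1889). In KO cells it had 436 and 1282 reads in the cytoplasm and 566 and 569 in whole cells. For both circRNAs every cytoplasm library was above every whole-cell library of the WT cells. Both reached the 10 reads of the filter through the cytoplasm, so their adjusted p is not read as support.

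Bnc2, which encodes the zinc finger protein basonuclin 2, showed the opposite order. Its circRNA of exons 2 to 3 had 2 and 2 reads in the cytoplasm and 220 and 183 in whole cells, a log2 fold change of -7.07 ± 0.49 (SE, edgeR adjusted p = 0.00496). In KO cells it had 139 and 256 reads in the cytoplasm and 44 and 43 in whole cells. The circRNA of Rps6kc1, a kinase-like protein of the ribosomal S6 kinase group, had 1 and 3 reads in the cytoplasm and 69 and 58 in whole cells, a log2 fold change of -5.41 ± 0.59 (SE, edgeR adjusted p = 0.00496). The ratio of cytoplasm to whole-cell reads was 0.00693 for Bnc2 (0.00188 to 0.0179) and 0.022 for Rps6kc1 (0.0059 to 0.0577). Neither pair of groups overlapped.

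The other circRNAs named by fold change, chosen among called circRNAs listed in all 4 libraries, had few reads in their lower group. Those of Ltbp1 (a latent TGF-beta binding protein) had 51 and 34 reads against 1 and 1, with a ratio of 29.7 (7.97 to 249). Dlc1 (a GTPase activating protein) had 22 and 19 against 1 and 1, with a ratio of 14.3 (3.72 to 122). Farsb (a subunit of phenylalanyl-tRNA synthetase) had 29 and 27 against 1 and 2, and Pir (pirin) 26 and 24 against 2 and 1. On the other side stood Mark3 (a microtubule affinity regulating kinase) with 1 and 1 reads in the cytoplasm against 8 and 26, Phlpp2 (a phosphatase) with 1 and 1 against 15 and 19 and Tiam2 (an exchange factor for Rac) with 1 and 1 against 14 and 19. Their ratios were 0.0411 to 0.0423. In all of these the groups did not overlap, and the edgeR adjusted p was 0.00496, or 0.00594 for Mark3. Both are bound up with the choice by fold change among called circRNAs, so neither is read as support. Each of these calls, those of Nfix, Pvt1, Bnc2 and Rps6kc1 included, ended without either of the cytoplasm libraries.

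**Figure D4:**
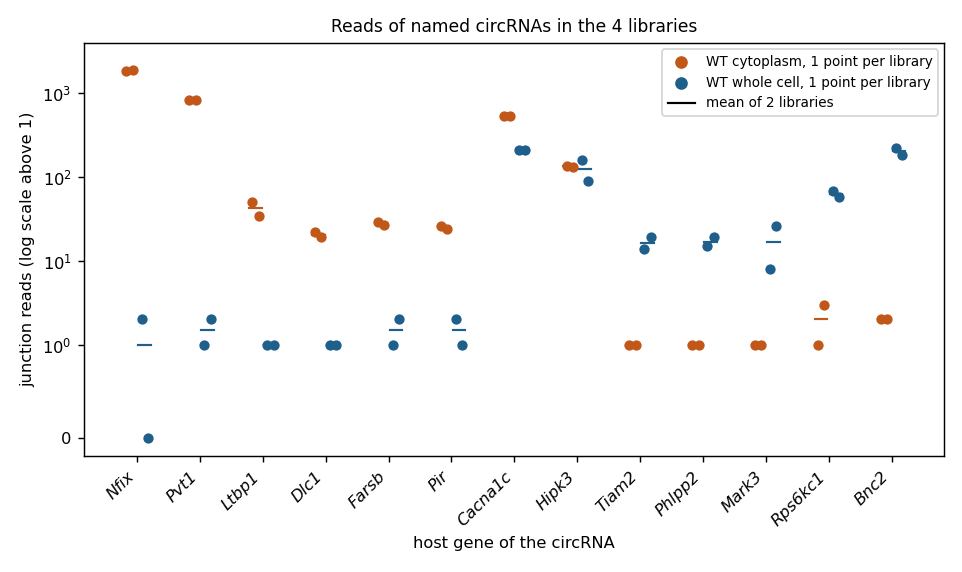
Junction reads of 13 named circRNAs in the 2 WT cytoplasm libraries (orange) and the 2 WT whole-cell libraries (blue), 1 point per library and a line at the mean, on a log scale above 1. Nfix and Pvt1 have 834 to 1871 reads in the cytoplasm libraries and at most 2 in the whole-cell libraries, Bnc2 has 2 and 2 against 220 and 183, and the groups overlap for Hipk3.

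Most abundant circRNAs of both lists differed by less. Cacna1c encodes a pore subunit of voltage-gated calcium channels, and its circRNA of exons 2 to 3 had 528 and 528 reads in the cytoplasm and 209 and 212 in whole cells. Scaled, this was a log2 fold change of 0.82 ± 0.26 (SE, edgeR adjusted p = 0.0319). The circRNA of Cped1 had 529 and 410 reads against 173 and 187, with 0.88 ± 0.31 (adjusted p = 0.0454), and that of Vapa, a membrane protein of the endoplasmic reticulum, 348 and 348 against 143 and 133, with 0.82 ± 0.29 (adjusted p = 0.0463). The circRNA of Tulp4 was lower in the cytoplasm, with 235 and 255 reads against 417 and 266 and a log2 fold change of -0.99 ± 0.32 (edgeR adjusted p = 0.0324). DESeq2 called none of these 4, with adjusted p from 0.138 to 0.249, and over all alternatives their adjusted p lay between 0.00157 and 0.309. The circRNAs of Mettl9 and Rasa2 did not pass. That of Mettl9, a methyltransferase, had 311 and 344 reads against 271 and 182, a log2 fold change of 0.02 ± 0.31 (edgeR adjusted p = 0.968), and that of Rasa2, a Ras GTPase activating protein, 303 and 253 against 294 and 254, with -0.48 ± 0.30 (adjusted p = 0.221).

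The study imaged circRNAs of Hipk3, Specc1, Nfix, Wwc1 and Adarb1. The circRNA of Hipk3, a kinase whose exon 2 forms a long-known circRNA of 1099 bases, had 137 and 132 reads in the cytoplasm and 161 and 90 in whole cells, with a log2 fold change of -0.41 ± 0.40 (SE, edgeR adjusted p = 0.435). The groups overlapped. That of Specc1, exons 6 to 10, had 53 and 16 reads against 13 and 9, with 1.17 ± 0.71 (adjusted p = 0.206). The most read circRNA of Wwc1, exons 16 to 18, had 0 and 0 reads in the cytoplasm and 4 and 4 in whole cells, too few for the test. Summed over its circRNAs, Wwc1 had 3 and 0 reads against 8 and 8, with -2.75 ± 0.74 (edgeR adjusted p = 0.0215). DESeq2 did not call it (adjusted p = 0.102). Wwc1 reached the 10 reads of the filter through whole cells, so its edgeR call is not read as a result. Specc1, summed in the same way, had 73 and 52 against 52 and 37, with 0.05 ± 0.31 (edgeR adjusted p = 0.909). Neither group listed a circRNA of Adarb1.

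Summed per host gene, the lists were more alike. The cytoplasm circRNAs came from 3712 host genes and the whole-cell circRNAs from 3868. Of 4661 in all, 2919 were in both, 78.6% of the cytoplasm hosts and 75.5% of the whole-cell hosts, with 793 in the cytoplasm only and 949 in whole cells only. Hosts in both lists gave 94.6% and 94.2% of the cytoplasm reads and 93.3% and 93% of the whole-cell reads. The hosts were thus shared more often than the circles. Of circRNAs listed in the cytoplasm only, 79.9% came from a gene that had another circRNA in whole cells, and of those in whole cells only, 79.4% came from a gene with another circRNA in the cytoplasm. Conversely, 596 of the 2919 hosts (20.4%) shared no circRNA between the lists, and 534 had exactly the same circRNAs in both.

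The most read circRNA of a gene often differed between the groups, in part because it was absent from the other list. Among 1795 hosts with at least 10 reads in each group, the leading circRNA was the same in 814 (45.3%), whereas cytoplasm replicates had the same one in 79.7% and whole-cell replicates in 66.9%. In 482 of these hosts (26.9%) the cytoplasm leader was absent from the whole-cell list. In 493 (27.5%) the whole-cell leader was absent from the cytoplasm list. Among the 467 hosts with at least 50 reads in each group, the leading circRNA was the same in 279 (59.7%), against 72.4% and 68.7% between replicates. Leaders absent from the other list numbered 42 and 43 here. As above, the replicate shares are not a baseline of independent libraries. The Spearman correlation of summed reads was 0.59 over the 4661 hosts and 0.7 over the 2919 in both lists, and between replicates on these 2919 it was 0.938 and 0.917.

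In the test of host genes, 3488 had at least 10 reads and 46.3% were called, 23.4% higher and 22.9% lower in the cytoplasm. Of the 2773 tested hosts in both lists, 901 were called (32.5%), 429 higher (15.5%) and 472 lower (17.0%), with a median log2 fold change of 0.01 over the 2773. With 1 to 3 reads in the group of fewer reads, 239 of 317 were called, which had reached 10 reads through the other group. With 10 or more reads in each group, 468 of 1948 were called, 231 higher and 237 lower. DESeq2 called 212 of the 2773, all of them also called by edgeR. Without cytoplasm replicate 1 edgeR called 0 (843 at an unadjusted p under 0.05), without cytoplasm replicate 2 it called 651, and without whole-cell replicate 1 or 2 it called 540 and 612. Without scaling, at a median of 0.45, 555 were higher and 153 lower.

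Nfix led the hosts of both lists by reads and by fold change. Its 5 cytoplasm circRNAs together had 1849 and 1889 reads, and its 4 whole-cell circRNAs 10 and 13, a log2 fold change of 6.88 ± 0.28 (SE, edgeR adjusted p = 0.000337). Pvt1 had 897 and 902 reads against 49 and 50, with 3.73 ± 0.22 (adjusted p = 0.00219). Of the 10 circRNAs of Pvt1 in whole cells 7 were shared with the cytoplasm. The other hosts with the largest and smallest fold changes are given among hosts listed in all 4 libraries. Pcbp2, which encodes a poly(C)-binding protein, had 40 and 44 reads from 5 circRNAs in the cytoplasm and 1 and 1 from another circRNA in whole cells. Among these Ext1 (a heparan sulfate polymerase) followed with 30 and 23 reads against 1 and 1, and Pogz (a zinc finger protein of chromatin) with 23 and 19 against 1 and 1. At the other end of these hosts, Eya1, a transcriptional coactivator with phosphatase activity, had 1 and 3 reads in the cytoplasm and 35 and 45 in whole cells, a log2 fold change of -4.68 ± 0.40 (SE, edgeR adjusted p = 0.00446). Kmt2a (a histone H3 methyltransferase) had 1 and 1 against 18 and 14, Klhl8 (a kelch protein) 1 and 1 against 15 and 15, Kdm3b (a histone demethylase) 1 and 1 against 13 and 15 and Psmd14 (a deubiquitinase of the proteasome) 1 and 3 against 26 and 26. Apart from Nfix and Pvt1, these hosts were chosen for their fold change and reached the 10 reads of the filter through 1 group. The adjusted p of Eya1 is therefore not read as support.

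Of the other hosts with most reads, some were called and some were not. Dtnb (dystrobrevin beta) had 492 and 508 cytoplasm reads from 17 circRNAs and 291 and 282 whole-cell reads from 19, and 15 of these circRNAs were shared. Its log2 fold change was 0.35 ± 0.19 (SE, edgeR adjusted p = 0.179). Rasa2 had 506 and 500 against 457 and 383 reads (-0.19 ± 0.20, adjusted p = 0.5), and Nsd2, a histone H3 methyltransferase, 407 and 184 against 297 and 255 (-0.32 ± 0.41, adjusted p = 0.563). Cacna1c and Cped1 were higher in the cytoplasm, with 0.85 ± 0.19 (adjusted p = 0.0114) and 0.91 ± 0.23 (adjusted p = 0.0179). Glis3, a Krüppel-like zinc finger factor, was lower, with 275 and 245 reads against 334 and 331 (-0.80 ± 0.21, adjusted p = 0.0205). DESeq2 did not call Glis3 (adjusted p = 0.0702), and called Cacna1c and Cped1 close to the threshold (adjusted p = 0.04999 and 0.0476). Hosts of a single list had far fewer reads. In the cytoplasm only they were led by Phldb1 with 34 and 35, Zmym6 with 31 and 32, Hk1 with 33 and 29, Iars2 with 26 and 25, Srp68 with 22 and 28 and Cerk with 26 and 21. In whole cells only they were led by Magi3 with 19 and 25, 2610507B11Rik with 20 and 21, Psmd2 with 19 and 22, Epb41l5 with 16 and 21, Tom1l2 with 23 and 14 and Top2b with 11 and 21.

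Host genes were also described by function, each list beside the 32.5% called and the median of 0.01 over all tested hosts in both lists. Of all 4661 hosts, 62.6% were in both lists. Members with fewer than 10 reads in a group reached the filter only with reads of the other group, which limits what their calls show. Of 25 genes whose circRNAs are well studied, 22 were listed and 19 were in both lists. Among these 19, 3 were higher in the cytoplasm (Pvt1, Camsap1 and Foxk2) and 3 lower (Homer1, Strn3 and Man1a2), with a median log2 fold change of -0.07. The split was 4 higher and 0 lower without scaling, and 1 and 2 with DESeq2. Man1a2, a mannosidase of the secretory pathway, had 10 and 25 reads against 65 and 44, with -2.09 ± 0.39 (SE, edgeR adjusted p = 0.00657). Strn3, a striatin, had 43 and 55 against 111 and 68 (-1.32 ± 0.30, adjusted p = 0.0113), and Homer1, a scaffold of glutamate receptors, 44 and 44 against 51 and 51 (-0.66 ± 0.22, adjusted p = 0.0485). Zkscan1 and Foxo3 were listed in the cytoplasm only, with 20 and 19 and with 7 and 7 reads, and Zfp609 in whole cells only, with 2 and 3. Of the nuclear factor I family, Nfix was called higher and Nfia lower (7 and 7 reads against 13 and 12, -1.27 ± 0.28, edgeR adjusted p = 0.0164), while Nfib had 25 and 29 against 22 and 19 (-0.05 ± 0.23, adjusted p = 0.893). Without scaling, and with DESeq2, Nfix alone of these was called. edgeR and DESeq2 called 0 of the 3 Hipk kinases in both lists, and 1 and 0 had an unadjusted p under 0.05. Hipk2 had 12 and 28 reads against 32 and 24 (-0.94 ± 0.37, edgeR adjusted p = 0.0772) and Hipk1 11 and 15 against 8 and 6 (0.44 ± 0.31, edgeR adjusted p = 0.456).

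Of 64 chromatin regulators, 58 were listed and 52 were in both lists, and 7 of the 52 were higher and 9 lower in the cytoplasm, with a median of 0.04. The split was 9 higher and 4 lower without scaling, and 1 and 3 with DESeq2. Chd9, a chromatin remodeler, had 41 and 52 reads against 10 and 9, a log2 fold change of 1.83 ± 0.26 (SE, edgeR adjusted p = 0.00446), and the demethylase Kdm1a 17 and 18 against 4 and 3 (1.84 ± 0.32, adjusted p = 0.00543). The lower ones included Nsd1, a histone H3 methyltransferase, with 1 and 5 against 24 and 17 (-3.16 ± 0.47, adjusted p = 0.00459), and the remodeler Atrx with 10 and 12 against 25 and 21 (-1.50 ± 0.25, adjusted p = 0.00522). The most read members were not called, as with Rere (206 and 268 reads against 186 and 185) and Ehmt1 (158 and 227 against 112 and 131). Of 45 ubiquitin ligases, 36 were in both lists, 6 higher and 6 lower, with a median of 0.01. Without scaling 10 were higher and 2 lower, and DESeq2 called 0 (7 at an unadjusted p under 0.05). Ube3a had 4 and 6 reads against 14 and 12 (-1.80 ± 0.31, edgeR adjusted p = 0.0055), while Birc6, with 132 and 136 against 97 and 105, was at -0.04 ± 0.21.

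Genes that act in signaling and adhesion of fibroblasts followed. Of 18 receptor tyrosine kinases, 14 were listed, 13 in both lists, and of the 12 tested 4 were higher (Fgfr1, Igf1r, Ephb4 and Erbb2) and 0 lower, with a median of 0.53. DESeq2 called 0 of the 12, and 0 at an unadjusted p under 0.05. Fgfr1 had 145 and 199 reads against 84 and 70, a log2 fold change of 0.70 ± 0.23 (SE, edgeR adjusted p = 0.0474), and Fgfr2, with 0.16 ± 0.21 (adjusted p = 0.593), did not pass. Of 13 receptors for TGF-beta and BMP, 8 were listed, all in both lists, with Acvr1 higher (33 and 38 reads against 16 and 16) and Tgfbr2 and Tgfbr3 lower (7 and 9 against 14 and 12, and 15 and 14 against 19 and 23). Of 14 genes of the Smad pathway, 7 were in both lists, and Smad4, the common partner of the receptor-regulated Smads, with 82 and 62 against 27 and 22, and the ligase Smurf2, with 30 and 37 against 11 and 7, were higher, with a median of 0.13 over the 7 and 0 lower. DESeq2 called 0 of these receptors and 0 of these Smad genes (0 and 2 at an unadjusted p under 0.05), and without scaling edgeR called 1 receptor higher and 0 lower. Of 35 adhesion and matrix genes listed, 21 were in both lists, close to the 62.6% of all hosts, with 9 in the cytoplasm only, such as Itgav (14 and 22 reads) and Itga3 (15 and 16), and 5 in whole cells only, such as Pxn (6 and 5). Of the 21, Itgb1, Vcl and Adamts6 were higher and 3, Actn1 and Cd44 among them, lower, with a median of 0.03. The split was 2 higher and 0 lower without scaling, and 0 and 1 with DESeq2 (1 at an unadjusted p under 0.05).

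Genes of nuclear transport and of circRNA formation were read as hosts in the same way. Of 44 transport genes, 31 were listed and 26 were in both lists, and of the 25 tested 2 were higher and 3 lower, with a median of 0.01. The split was 4 and 1 without scaling, and 0 and 1 with DESeq2. Xpo1, the main exportin of proteins, had 4 and 2 reads in the cytoplasm and 23 and 31 in whole cells, a log2 fold change of -3.56 ± 0.39 (SE, edgeR adjusted p = 0.00446). Xpo4 was listed in whole cells only, with 10 and 9 reads from 3 circRNAs. Ipo7, an import receptor, had 107 and 84 reads against 68 and 72 and was at 0.01 ± 0.25. A list of 25 genes covered circRNA formation, and also held Muc1 and the RNA export helicases Ddx39a and Ddx39b. Of these 25, 15 were listed and 11 were in both lists, with 3 higher and 2 lower and a median of -0.10. The split was 3 and 1 without scaling, and 1 and 1 with DESeq2. Prpf8, the core component of the spliceosome, had 49 and 47 reads against 12 and 8 (1.80 ± 0.29, edgeR adjusted p = 0.00491). The helicase Dhx9, which unwinds the inverted repeats that promote backsplicing, had 13 and 19 against 32 and 26 (-1.30 ± 0.26, adjusted p = 0.00741), and the RNA export helicase Ddx39b 4 and 4 against 16 and 17 (-2.45 ± 0.30, adjusted p = 0.00446). Adar, Hnrnpm, Sf3a1 and Srsf11 were in the whole-cell list only, with 31 reads for Sf3a1 over both libraries at most.

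**Figure D5:**
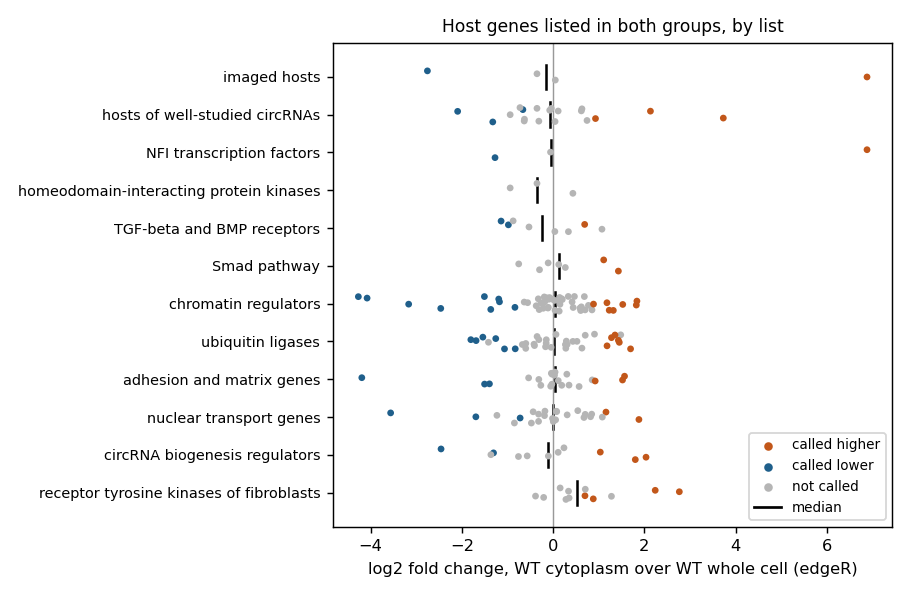
Log2 fold change of junction reads summed per host gene, cytoplasm over whole cell (edgeR), for the host genes in both groups of each list, 1 point per gene, with the median as a line. The medians lie between -0.24 and 0.13 except for the receptor tyrosine kinases at 0.53 and the Hipk kinases at -0.35, and genes of 9 of the 12 lists drawn were called on both sides, against 4 of the 12 without scaling.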

How the data were processed

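CircRNA libraries of WT NIH/3T3 cells, 2 of cytoplasm and 2 of whole cells, were analysed. Groups and replicate numbers came from the sample titles. The members and gene lists were chosen with earlier results of these data known. The authors digested linear RNA with RNase R, trimmed adapters with cutadapt, ran find_circ on GRCm38 and deposited the count of junction reads per circRNA, 1 list per library, without normalization. Filters before deposit are not given in the sources used here. The mRNA-seq files hold the authors' read count of each gene (HISAT2, featureCounts 2.0.0). The column headings inside the mRNA-seq files name the other genotype, and the titles were followed. Deposited starts count from 0, and 1 was added. The extract protocol in the labels speaks of blood, while the cell line label says NIH/3T3.

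Ends were matched to exon edges of GENCODE vM21 (99 circRNAs fitted several genes). Counts were tested with edgeR 4.0.16 in R 4.3.3 (glmQLFit, glmQLFTest, TMM, at least 10 reads over the 4 libraries, Benjamini-Hochberg adjusted p under 0.05), which was first tested on simulated data. The SE is the log2 fold change divided by the root of the F statistic. DESeq2 1.42.0 was the alternative, beside other scalings, no filter, a replicate block and leaving out each library. Single values per library were compared by exact permutation tests (scipy 1.17.1). Lower bounds set an absent group at 3 reads over its 2 libraries, and ratios carry exact binomial 95% intervals, both after scaling. FPKM were computed here from the counts, and 54349 of 55401 gene identifiers had a symbol. Depth was 55109 to 81941 junction reads per library, which covers counting error only.

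Named circRNAs were the 8 with most reads in both lists, the 8 in each single list, the 5 with the largest and the 5 with the smallest log2 fold change among called circRNAs of all 4 libraries, and the most read circRNA of each host the study imaged. Named hosts followed the same rule with 6, 6 and 5, with the most read members of each list. Further members of the lists were named after their values were seen, as were the markers of cell types. Some genes, a list and a junction that these rules would name are not reported here.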

Additional observations from a re-analysis of the deposited data

Results flagged for a closer look

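The ratio of cytoplasm to whole-cell reads was compared between WT and KO cells with an edgeR interaction term over the 8 cytoplasm and whole-cell libraries, a test added after the data were seen. Of 13729 circRNAs tested, 1018 passed an adjusted p of 0.05, 438 with a higher ratio in WT and 580 with a lower one. All named circRNAs with a large difference in WT cells and reads in both groups were among these. The difference in log2 ratio, WT minus KO, was 10.23 for Nfix (edgeR adjusted p = 0.0049), 8.04 for Pvt1 (adjusted p = 0.0108), 5.80 for Ltbp1, 7.20 for Dlc1, 5.72 for Farsb and 6.43 for Pir. It was -9.14 for Bnc2 (edgeR adjusted p = 0.000317), -5.40 for Rps6kc1, -3.85 for Mark3, -4.92 for Phlpp2 and -6.22 for Tiam2. The adjusted p of the others ran from 0.000352 for Dlc1 to 0.0255 for Mark3. These circRNAs were chosen for their ratio in WT, so the WT side of each difference is not independent of the choice. Neither their place among the called circRNAs nor their adjusted p is therefore read as support. Groups of 2 libraries are too small for a search for outlying samples.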

How the results depend on the processing

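Beside the 4657 circRNAs called of 7760 (2644 higher and 2013 lower), no scaling gave 2290 (1719 and 571), DESeq2 3030 (1507 and 1523), no filter on low counts 4792 (2113 and 2679), circRNAs of both lists alone 591, and leaving out a library from 0 to 2732. Beside 1616 host genes, DESeq2 gave 765 and leaving out a library 0 to 1097. Every fit without a library assumes that the lone library left in a group varies like the other group. The difference in mean log10 reads turned to -0.016 (exact permutation p = 0.667) with every library scaled to the same total. The Spearman correlation over all circRNAs, -0.0477, moved to 0.446 over both lists, 0.449 without Nfix and Pvt1 and 0.59 per host gene. The difference in median spliced length, -26 bases over listed circRNAs, was -3 weighted by reads, and -517.5 as genomic span. CircRNAs in both lists numbered 4466 to 4517 and hosts 2837 to 2868 without each library, 3961 and 2680 when both libraries of a group were required, and 3156 and 2386 with at least 5 reads in a group. The cause of these changes was not tested.

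The replicate number as a block gave 4689 circRNAs and 1608 host genes. Same-numbered libraries deviated together with a correlation of 0.0287 over circRNAs and 0.0412 over hosts, and nothing in the labels pairs them. Depth limits circRNAs of few reads, for which absence from a list was not told apart from a low level.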

Other observations

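Host genes of both lists and of a single list had similar mRNA levels in the 3 unfractionated mRNA-seq libraries of WT cells. The median was 8.5 FPKM for 2795 hosts of both lists, 8.31 FPKM for 768 hosts of the cytoplasm list only and 8.1 FPKM for 918 hosts of the whole-cell list only, against 6.88 FPKM for 7926 genes of at least 1 FPKM without a listed circRNA. Hosts under 1 FPKM made up 4.08%, 12.9% and 12.2% of the 3 classes. Some of the hosts named above lay far apart at the mRNA level, with Psmd2 at 143.5 ± 2.29 FPKM and Epb41l5 at 0.607 ± 0.0875 FPKM (SD, n = 3), both with circRNAs in whole cells only. Nfix mRNA was at 55.8 ± 1.83 FPKM and Pvt1 RNA at 5.74 ± 0.532 FPKM.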
